A study of Mus musculus with 10 samples.

Results

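The genes described here encode the mitochondrial ribosome and the machinery that imports proteins into mitochondria. They were taken by name as the protein-coding genes whose symbols begin with Mrpl or Mrps and a number (proteins of the large and small subunits of the mitochondrial ribosome), with Timm and a number (translocases of the inner membrane, TIM) or with Tomm and a number (translocases of the outer membrane, TOM). Of the 39056 genes in the count table, 103 met this rule: 49 large subunit genes, 29 small subunit genes, 15 TIM genes and 10 TOM genes. The names follow history rather than structure in a few cases, since the products of Mrps18a and Mrps30 sit in the large subunit of the mammalian particle and Tomm34 is a cytosolic co-chaperone. A further 5 pseudogenes with such names were left out.

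Mitochondria make only a handful of respiratory chain proteins themselves, on a ribosome whose proteins are all encoded in the nucleus and imported. Nearly every other mitochondrial protein enters through the TOM channel and is then sorted, by the TIM23 complex to the matrix or by the TIM22 complex into the inner membrane, with small TIM chaperones escorting hydrophobic carriers between the membranes. Hepatocytes are rich in mitochondria, and genes of these assemblies are expressed in essentially all tissues.

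The libraries came from 10 male C57BL/6 mice killed at 11 months of age, either wild type (WT) or knockout (KO) for MLK3, a mixed-lineage kinase. Mice with tumours had received diethylnitrosamine (DEN), a DNA-alkylating carcinogen, at 5 µg per g body weight into the peritoneum when 2 weeks old, followed after a lag of 1 week by phenobarbital (PB), a tumour promoter, at 0.05% in their drinking water. Controls drank plain water. The 4 groups were WT liver (2 libraries), KO liver (2), WT tumour (3) and KO tumour (3), each library standing for 1 biological replicate. Every tumour came from a mouse given DEN and PB and every liver from a mouse on plain water, so tumour and treatment cannot be told apart, and the labels name tumour tissue although the extraction protocol mentions treated liver. How the knockout was made, and in which cells, was not given in the sources used here. In bulk tissue of this kind, fewer cells of a type and less RNA per cell cannot be told apart.

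RNA was counted by 3′ tag sequencing, in which a transcript gives a tag near its 3′ end whatever its length. Levels are given as CPM, the count of a gene scaled to a fixed total per library, after TMM scaling, and a log2 fold change is a difference between group levels with its standard error (SE). A gene is said to have risen or fallen where its Benjamini-Hochberg adjusted p over all 15811 tested genes was under 0.05 in edgeR's quasi-likelihood test. Library totals lay between 12408749 and 18081487 counts. Map3k11, which encodes MLK3, stood at 7.91 and 14.9 CPM in WT liver, 5.37 and 5.81 in the KO livers, 12.2, 9.53 and 14.3 in the WT tumours and 10.0, 10.3 and 5.84 in KO tumours, and a tag outside the deleted part would not report the deletion. KO tumour replicate 2 stood apart from the other tumours, with 3.84 CPM of the fetal liver marker Afp where the other 5 tumours had at least 146. By Gpc3 all 3 KO tumours lay below the WT tumours, with 46.8, 0.488 and 48.9 CPM against 441, 609 and 349 CPM, and replicate 2 was again lowest. Values without KO tumour replicate 2 are given beside several of the named results for KO tumours.

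Most of the genes were expressed at moderate, similar levels. The median member had 29.5 CPM averaged over the 10 libraries, 80 of 103 lay between 10 and 100 CPM, 7 were at 100 CPM or more and 16 were under 10. In the large subunit the highest was Mrpl12, whose product also binds the mitochondrial RNA polymerase, at 148 CPM. The highest in the small subunit was Mrps12, a protein of the decoding centre, at 104 CPM. Among TOM genes the small channel subunit Tomm7 led with 251 CPM, ahead of the carrier receptor Tomm70a with 164 CPM. Timm22, the channel of the inner membrane carrier translocase, had the highest mean of all, 636 CPM or 14.1% of the members' summed CPM, but varied widely within groups. The next TIM gene, the small chaperone Timm13, had 125 CPM. These levels compare tags per gene and assume that each annotated gene contains its true 3′ end.

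Under 5 CPM lay 2 of 49 large subunit, 3 of 29 small subunit, 2 of 15 TIM and 4 of 10 TOM genes. Of the 103 genes 98 passed the filter on low counts and 5 did not, namely Mrpl53, Mrps34, Timm8a2, Tomm20l and Tomm6. Of these Mrpl53, Timm8a2, Tomm20l and Tomm6 had no count in any library, which allows up to 3 counts, or 0.166 to 0.242 CPM by library, counting error only. The lowest small subunit gene was Mrps34, with 16 counts in a single library. Core subunits of the import channels were among the low genes as well: Timm23, the channel of the presequence translocase, had a mean of 2.94 CPM and the small TOM subunit Tomm5 had 2.61. The last 300 transcribed bases of Mrpl53 lie wholly, and the 394 bases at the ends of Tomm6 transcripts for 68.5%, under exons of another annotated gene on the same strand (Gm42688 and Gm21981, themselves without a count). The last 300 bases of Mrps34 lie wholly opposite exons of Mapk8ip3, but those of Mrps25, with a mean of 18.7 CPM, also lie wholly opposite exons, of Nr2c2. Of the 11 genes under 5 CPM 2 had such a same-strand overlap, against 3 of the other 92. The part of these overlaps in the low counts was not tested.

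In most families of related genes 1 member carried most counts in liver and tumour alike. Tomm20, the presequence receptor of TOM, carried all counts of its pair in every library, Tomm20l having none. Tomm40, the channel itself, carried all counts of its pair in livers and WT tumours and 93.2% on average in KO tumours. Timm8b carried 85.5% of the Timm8 family in WT liver, 75.2% in the KO livers, 87.0% in the WT tumours and 89.3% in KO tumours, the rest coming from Timm8a1. Timm17a and Timm17b, alternative subunits of the presequence translocase, were more balanced, Timm17a taking 32.5% of the pair in WT liver, 42.9% in the KO livers, 46.5% in the WT tumours and 45.5% in KO tumours. Timm10b exceeded Timm10 on average in each group, and Mrps18b exceeded Mrps18a and Mrps18c. None of the genes of these families passed the test in any of the 5 comparisons by edgeR. Timm17a came nearest, in WT tumours, where the 3 libraries had 29.4, 55.2 and 31.7 CPM against 16.0 and 20.0 in WT liver (log2 fold change 1.10, SE 0.34, adjusted p = 0.062).

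The comparison of WT tumours with WT liver asks how the machinery differs in tumours that arise with MLK3 present. The ribosomal protein genes Mrpl4 and Mrps5 and the import chaperone Timm9 fell, and Mrpl41 rose. That makes 4 of 98 tested genes called (4.08%), 1 higher and 3 lower, against 8.34% of all genes tested (3.64% higher and 4.7% lower), so calls were no more frequent here than across the transcriptome. DESeq2 called 3 members higher, where it called 7.58% of all genes higher. The small changes leaned downward: 63 of 98 genes lay below 0, or 64.3% against 45.4% of all genes tested, and the median log2 fold change was -0.21 against 0.09. The lean was widest in genes named for the small subunit, with a median of -0.42 and 22 of 28 genes below 0. Medians were -0.18 for the large subunit, 0.06 for TIM genes and -0.06 for TOM genes. Grouping was by name, so the 28 include Mrps18a (-0.40) and Mrps30 (-0.64), whose products sit in the large subunit. Without scaling between libraries the medians of the members and of all genes moved together, to 0.04 and 0.36, so that the members' own median changed sign while its distance from all genes was -0.31 against -0.30. The small subunit kept its sign without scaling, at -0.16, and the large subunit moved to 0.09. For genes averaging at least 10 CPM that distance was -0.16.

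Mrpl4, a protein of the large subunit core (chr9:21002738-21008839, plus strand, GRCm38), had the smallest p. It was at 56.0 and 52.4 CPM in WT liver and at 24.4, 18.5 and 19.2 CPM in WT tumours. The KO livers had 48.8 and 65.3 CPM and the KO tumours 31.8, 35.0 and 33.2 CPM. All 6 tumours were thus below all 4 livers, with the WT tumours lowest. In WT tumours Mrpl4 was 2.62-fold lower than in WT liver (log2 fold change -1.39, SE 0.26, adjusted p = 0.0028), and it passed under each of the 17 alternatives run. The differences between KO tumour and KO liver (-0.78, SE 0.26, adjusted p = 0.31) and between KO and WT tumours (0.69, SE 0.23, adjusted p = 0.13) did not pass, and without KO tumour replicate 2 they were -0.81 (adjusted p = 0.27) and 0.65 (adjusted p = 0.32).

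Timm9, which pairs with Timm10 in the hexameric chaperone that carries metabolite transporters across the intermembrane space, was the member called between KO and WT tumours (chr12:71123173-71136684, minus strand). WT liver had 36.2 and 43.2 CPM, and the WT tumours had 14.2, 15.0 and 13.7 CPM. KO liver had 44.9 and 22.2 CPM, and the KO tumours had 40.7, 34.0 and 35.5 CPM. The 3 WT tumours were the lowest of the 10 libraries and close to each other, while the KO tumours fell within the range of the livers. Timm9 fell in the WT tumours (a log2 fold change of -1.47, SE 0.31, adjusted p = 0.0074), a call that was lost without WT liver replicate 2 (adjusted p = 0.055). It was 2.57-fold higher in KO than in WT tumours (1.36, SE 0.29, adjusted p = 0.011), under all 17 alternatives. Between KO tumour and KO liver the value was 0.13 (SE 0.32, adjusted p = 0.94). The test of the difference between the genotypes' tumour-to-liver changes gave 1.60 (SE 0.45) and did not pass (adjusted p = 0.10). Without KO tumour replicate 2 these 3 values were 1.41 (adjusted p = 0.029) between tumours, 0.18 (adjusted p = 0.93) in KO tumours and 1.66 (adjusted p = 0.15) for the difference. Its partner Timm10 did not share the pattern of levels, with 30.7, 25.1 and 24.0 CPM in WT tumours against 11.9 and 29.5 in WT liver (0.36, SE 0.39, adjusted p = 0.66).

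Mrps5, a small subunit protein near the decoding site (chr2:127587222-127606829, plus strand), and Mrpl41, a large subunit protein particular to mitochondria (chr2:24974117-24975098, minus strand), passed with less margin. Mrps5 was at 41.4 and 55.1 CPM in WT liver and 16.9, 18.4 and 28.2 CPM in WT tumours. It had 32.2 and 48.8 CPM in the KO livers and 22.2, 46.3 and 35.3 CPM in KO tumours, which overlapped KO liver. The fall in the WT tumours (a log2 fold change of -1.19, SE 0.35, adjusted p = 0.047) was lost in 7 of 17 alternatives, including those without either WT liver replicate, WT tumour replicate 1 or 2 or KO tumour replicate 3, with adjusted p up to 0.24.

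Mrpl41 ran the other way. It was at 10.8 and 9.46 CPM in WT liver and 23.0, 22.7 and 24.6 CPM in WT tumours. KO liver had 15.9 and 16.6 CPM, and the KO tumours had 34.2, 30.0 and 26.0 CPM. Every tumour was above every liver, and within each tissue the KO libraries were above the WT libraries. The difference by genotype did not pass edgeR's test in liver (0.68, SE 0.34, adjusted p = 0.70) or in tumours (0.36, SE 0.27, adjusted p = 0.64). The rise in the WT tumours (a log2 fold change of 1.21, SE 0.32, adjusted p = 0.029) was lost in 8 of 17 alternatives, including those without any 1 of the WT libraries, with adjusted p up to 0.17. In KO tumours against KO liver the value was 0.89 (SE 0.32, adjusted p = 0.37), and 0.89 without KO tumour replicate 2 (adjusted p = 0.34).

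**Figure D1:**
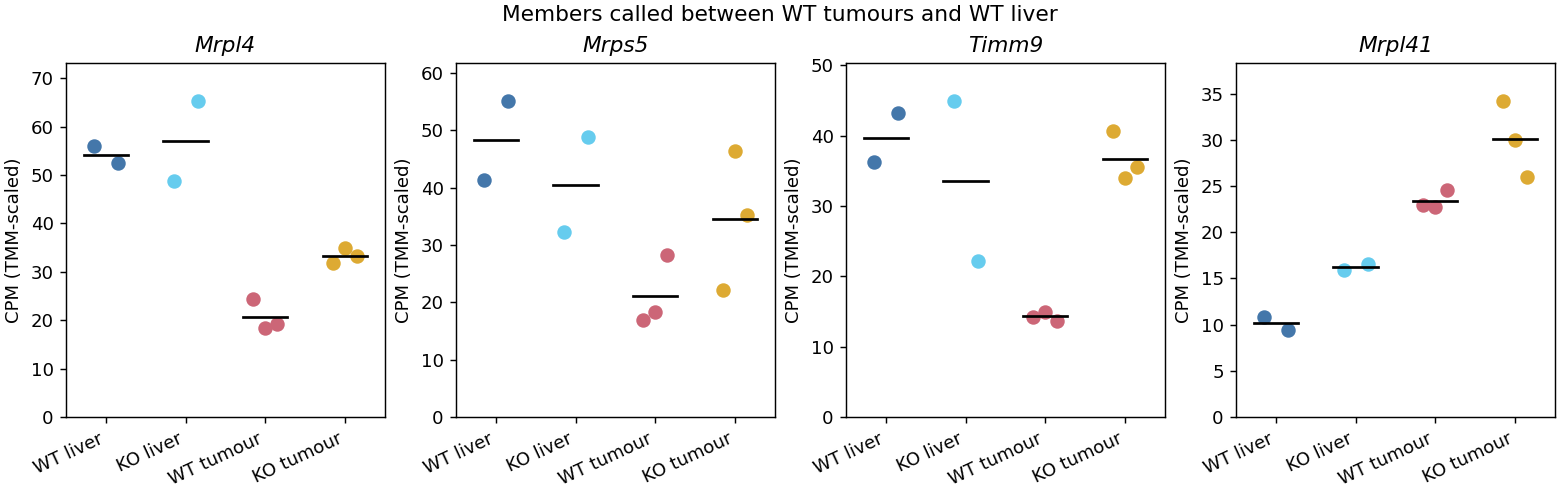
CPM of Mrpl4, Mrps5, Timm9 and Mrpl41 in each of the 10 libraries (points) with group means (lines), by group on the horizontal axis. The 3 WT tumours are the lowest libraries for Timm9, at 13.7 to 15.0 CPM, while the KO tumours lie at 34.0 to 40.7 CPM.

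Markers of other cells differed in the same comparison. The summed level of 8 cholangiocyte markers was 89.7 to 122 CPM in WT liver, 270 to 505 in WT tumours, 60.4 to 75.9 among KO livers and 52.1 to 282 in KO tumours, with Tspan8 and Spp1 of the 8 called higher in WT tumours. For 12 Kupffer cell and macrophage markers the sums were 483 to 508, 707 to 1088, 484 to 767 and 665 to 1025 CPM in that order, with Cd5l and Lyz2 called higher. The 10 hepatocyte markers, of which 3 were called higher and 1 lower in WT tumours, summed to 46111 to 48282 CPM in WT liver, 76077 to 96895 in WT tumours, 50707 to 53914 in KO liver and 40892 to 47786 in KO tumours. By gene, however, their median log2 fold change in WT tumours was -0.27, so the sum and the median went opposite ways. Sums of 6 neutrophil markers, of which 3 were tested, were 21.9 to 22.6 CPM in WT liver and 53.4 to 213 in WT tumours. Those of 8 B and plasma cell markers were 26.2 to 60.6 and 64.0 to 202, with no marker of either list called. None of the markers on these 5 lists was at 0 in all libraries. Among 5 red blood cell markers Hbb-bs and Hbb-bt were called higher in WT tumours, and among 9 stellate cell and fibroblast markers Dcn was called lower. The median log2 fold change of those 9 markers in WT tumours was 0.87, so Dcn went against most of its list. The part of all these markers in the results for the mitochondrial genes was not tested.

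Summed levels of the members without Timm22 set the WT tumours apart only after TMM scaling. Without Timm22 the other 102 genes summed to 3937 and 3997 CPM in WT liver, 4058 and 4092 in the KO livers, 3354, 3607 and 3586 in the WT tumours and 4180, 3907 and 3921 in KO tumours. On this scale all 3 WT tumours were below the other 7 libraries, which spanned only 3907 to 4180 CPM. As shares of all counts, without that scaling, the same genes took 0.354% and 0.363% in WT liver, 0.393% and 0.369% in the KO livers, 0.388%, 0.366% and 0.394% in the WT tumours and 0.437%, 0.387% and 0.411% in KO tumours, so the WT tumours were then not low. Small subunit genes took 0.0963% and 0.0978% in WT liver, 0.0991% and 0.105% in the KO livers, 0.0925%, 0.0895% and 0.0985% in the WT tumours and 0.106%, 0.103% and 0.0933% in KO tumours, where WT tumours still had the lowest mean but overlapped WT liver and KO tumours. On the TMM scale the large subunit genes gave 1740 ± 47.1 CPM in WT tumours (SD, n = 3) against 1935 ± 6.99 in WT liver (n = 2), 2054 ± 17.4 in the KO livers (n = 2) and 1996 ± 41.2 in KO tumours (n = 3). Small subunit genes gave 860 ± 53.3, 1073 ± 3.64, 1094 ± 99 and 983 ± 80.9 CPM in that order, the lowest KO tumour, at 891 CPM, falling among the WT tumours. TIM genes without Timm22 gave 386 to 414 CPM in WT tumours and 433 to 508 CPM elsewhere. TOM genes did not separate, with 456 to 547 CPM in WT tumours and 442 to 632 CPM elsewhere.

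**Figure D2:**
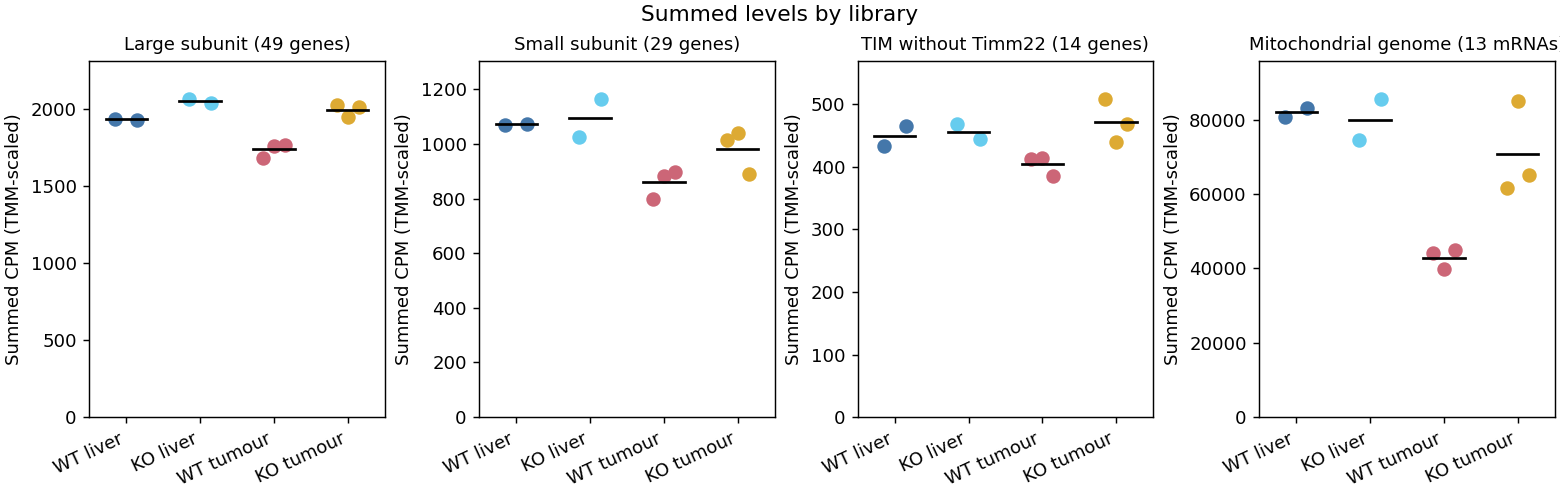
Summed CPM of large subunit genes, small subunit genes, TIM genes without Timm22 and the 13 protein-coding genes of the mitochondrial genome in each library (points) with group means (lines). On this TMM scale WT tumours have the lowest mean in each panel, which for large subunit and TIM genes is not so as shares of all counts, and their mitochondrial mRNAs sum to 39720 to 44874 CPM against 61690 to 85537 CPM in the other libraries.

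KO tumours were compared with KO liver to see the same tissue change without MLK3. Timm22 alone rose, and none of the 98 genes fell, where 0.0759% of all genes tested were called. The median log2 fold change was -0.08 against 0.06 for all genes, with -0.06 for the large and -0.23 for the small subunit, and without scaling these became 0.05, 0.19, 0.09 and -0.09. Timm8b, with 78.6, 26.7 and 76.6 CPM in KO tumours against 25.2 and 22.2 in KO liver, did not pass (1.35, SE 0.41, adjusted p = 0.25). KO tumour replicate 2 was the low one of the 3, and without it Timm8b passed (1.71, adjusted p = 0.012).

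The livers were compared by genotype to see its difference without carcinogen. None of the 98 genes passed edgeR's test, where 0.00632% of all genes did, and 3 had an unadjusted p under 0.05 in each direction, 6.12% of members against 7.28% of all genes. DESeq2 called 1 gene, Timm22, lower, and 0.55% of all genes. The smallest p-values belonged to Timm22 (log2 fold change -3.23, SE 0.66, adjusted p = 0.26), to the large subunit gene Mrpl35 (0.75, SE 0.29, adjusted p = 0.63) and to Timm17a (0.91, SE 0.37, adjusted p = 0.65). Mrpl35 had 36.1 and 25.9 CPM in WT liver and 50.5 and 54.0 in the KO livers, and Timm17a had 16.0 and 20.0 against 31.0 and 36.6. The medians were 0.07 for the members and 0.00 for all genes.

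KO and WT tumours, both from treated mice, were compared to see how tumours differ by genotype. Timm9 was higher in KO tumours and no gene was lower, 1 of 98 against 4.52% of all genes called (3.25% higher and 1.27% lower). The members again leaned in 1 direction: 67 of 98 lay above 0, or 68.4% against 48.4% of all genes, with a median of 0.21 against -0.03, and 14 had an unadjusted p under 0.05 higher while 0 did so lower. That is 14.3% of members against 14.9% of all genes tested, of which 1430 were higher and 932 lower, so the total was near the background. This comparison shares the WT tumours with the first, so the opposite leans of these comparisons are not separate evidence. Medians were 0.19 for the large subunit, 0.26 for the small subunit, 0.19 for TIM and -0.01 for TOM genes. Without KO tumour replicate 2 the members' median was 0.15, and without scaling it was 0.12. A further 3 genes, Mrpl49, Mrps24 and Mrpl14, were called higher by DESeq2, which called 4.91% of all genes higher, and are named here after their values were seen. Mrpl49 had 27.9, 21.3 and 17.1 CPM in KO tumours and 12.7, 5.39 and 7.05 CPM in WT tumours (1.39, SE 0.41, edgeR adjusted p = 0.07; DESeq2 adjusted p = 0.035). Mrps24 had 124, 97.4 and 102 CPM against 66.2, 71.5 and 63.4 CPM (0.69, SE 0.20, edgeR adjusted p = 0.072). In edgeR without KO tumour replicate 2 the adjusted p was 0.17 for Mrpl49, 0.09 for Mrps24 and 0.13 for Mrpl14.

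**Figure D3:**
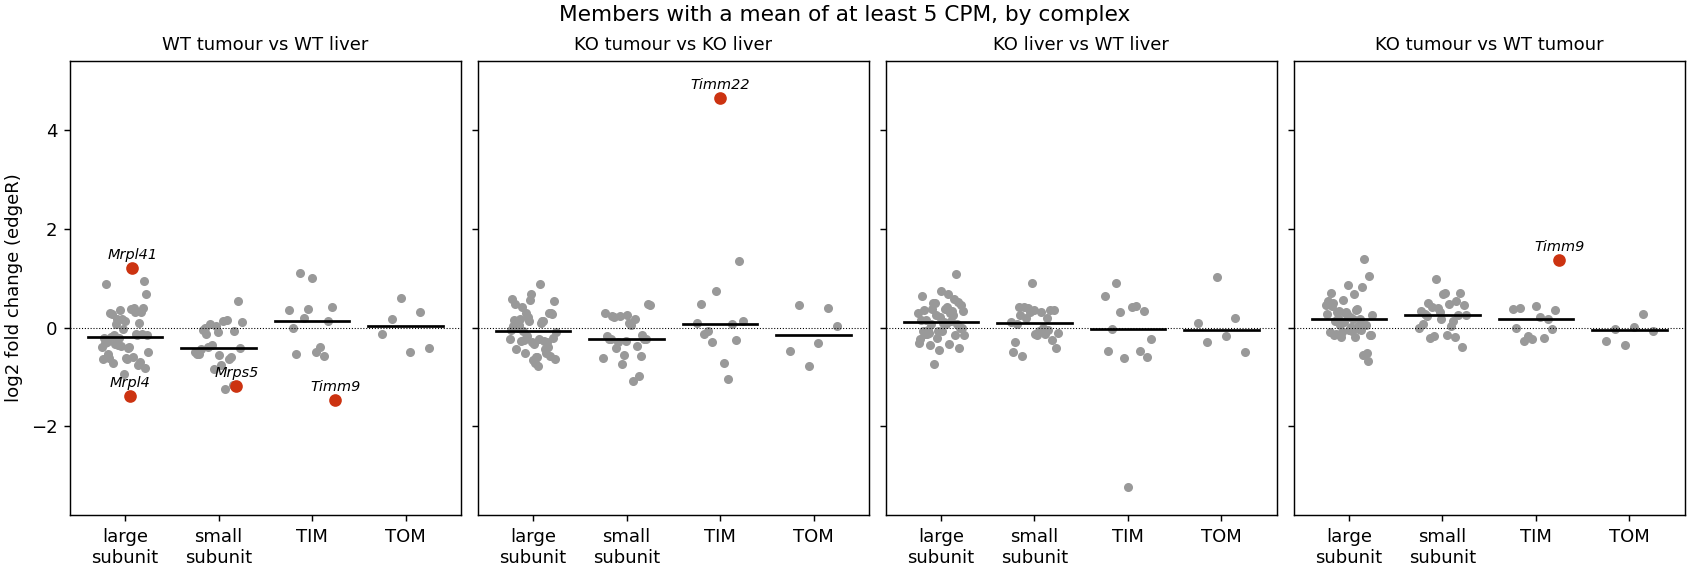
log2 fold changes (vertical axis) of the 92 members with a mean of at least 5 CPM, by complex, in 4 comparisons. Red points passed edgeR's test, grey points did not, and lines are medians, which for the small subunit lie at -0.40 in WT tumours against WT liver and 0.26 in KO against WT tumours.

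Timm22 encodes the channel through which metabolite carriers are inserted into the inner membrane (ENSMUSG00000020843.15, chr11:76406952-76416292, plus strand). It had 219 and 559 CPM in WT liver and 32.4 and 50.6 CPM in KO liver. The WT tumours had 361, 1045 and 937 CPM and the KO tumours 1847, 368 and 943 CPM. The KO livers were lowest and did not overlap any other group, whereas the WT livers and the tumours overlapped, and replicates of a group differed by up to 5.02-fold. Its within-group SD was 0.94 on the log2 scale, against a median of 0.33 over the tested members and 0.66 over all genes tested. Over all genes with a mean of at least 10 CPM the median was 0.36. Members with larger spreads than Timm22 included the low-count genes Tomm5 (2.21), Mrps36 (2.17) and Timm23 (1.96). They also included Mrps27 (1.13), with a mean of 11.7 CPM, named here after its values were seen. The difference between the genotypes' tumour-to-liver changes was 3.66 for Timm22 (SE 0.81, adjusted p = 0.033), where 1.59% of all genes were called, and no other member passed that test. It was lost without KO liver replicate 1 or 2, KO tumour replicate 1 or 3, WT liver replicate 2 or WT tumour replicate 1 or 3, with adjusted p up to 0.12, and without KO tumour replicate 2 it was 4.06 (adjusted p = 0.0076). The rise in KO tumours over KO liver was lost without either KO liver replicate or without KO tumour replicate 1 or 3. It was also lost with genes averaging at least 10 CPM and with the compared groups alone, with adjusted p up to 0.21. Without KO tumour replicate 2 it was 5.07 (adjusted p = 0.0007).

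Other genes of the TIM22 complex had lower levels and narrower ranges than Timm22. Timm29 had 25.7 and 16.5 CPM in WT liver, 24.5 and 31.9 in the KO livers, 27.3, 7.71 and 9.49 in the WT tumours and 13.1, 26.0 and 12.5 in KO tumours. Its KO livers were not the lowest libraries. The small chaperone Timm10b did have its lowest levels in KO liver, 37.5 and 50.3 CPM against 52.7 to 75.8 CPM elsewhere, and so did Timm8b, which is not part of that complex, with 25.2 and 22.2 CPM against 26.7 to 78.6 CPM. The genes whose log2 CPM was most like that of Timm22 over the 10 libraries were Dennd4a (Pearson r = 0.992), Exoc3l4 (0.971) and Gm13657 (0.967), none of which is a member. These are descriptions over libraries that share groups and depth. Dennd4a was at 86.9 and 231 CPM in WT liver, 26.5 and 25.6 in the KO livers, 157, 447 and 423 in the WT tumours and 768, 199 and 388 in KO tumours.

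A comparison of transcript sequences, made after these levels were seen, found that 1 annotated Timm22 transcript (2817 bases) and a retained-intron transcript of Dennd4a share a stretch of 94 aligned bases with 97.9% identity, at bases 1137 to 1229 of the former. Transcripts of 8 genes besides Timm22 hold it on the sense strand over at least 90 bases with at least 90% identity, among them Bc1, the small brain RNA from which the rodent ID class of repeats derives. Of those 8 genes 6 are in the count table, and they did not move as one. Lrrc17 had 25.0 and 53.1 CPM in WT liver, 0.4 and 98.8 in the KO livers, 81.0, 291 and 149 in the WT tumours and 278, 27.0 and 138 in KO tumours (r = 0.761 with Timm22). Ccdc36 had at most 4.31 CPM (r = 0.825), while Kif3a (r = 0.365), Cnot3 (r = -0.18) and St3gal1 (r = -0.452) went other ways. Whether tags from this stretch reach the Timm22 count was not tested, and the count table does not show where in a gene a tag lies.

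**Figure D4:**
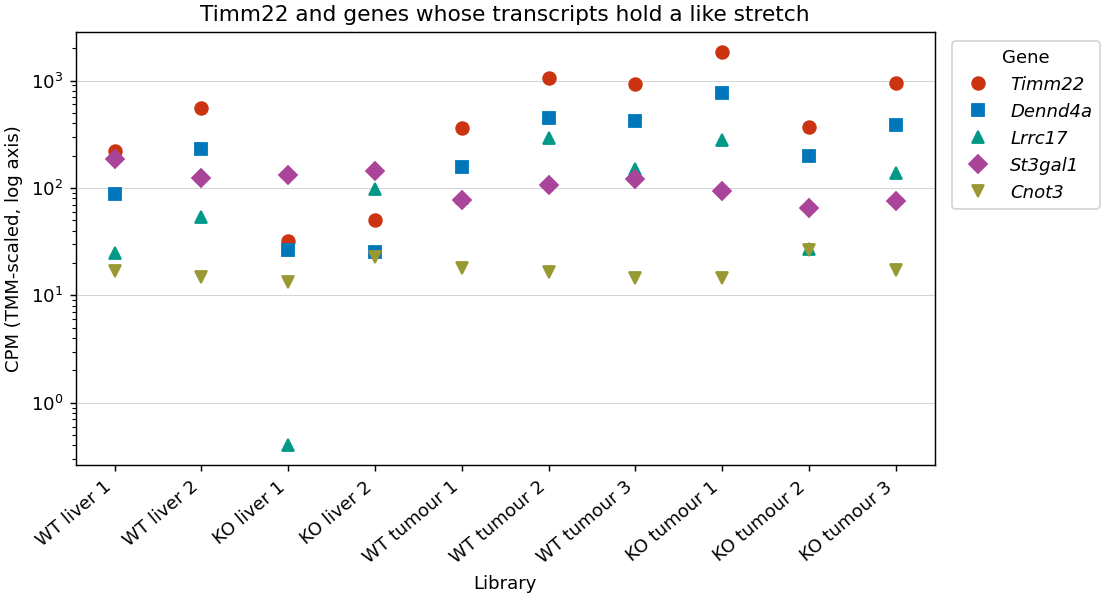
CPM on a log axis of Timm22 and of 4 genes whose transcripts hold a like stretch, in each library along the horizontal axis. Dennd4a follows Timm22 from library to library (r = 0.992, n = 10), St3gal1 and Cnot3 do not, and KO liver replicate 1 has 0.4 CPM of Lrrc17.

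The rest of the pathway was examined in lists that the name rule does not cover. The 13 protein-coding genes of the mitochondrial genome, whose mRNAs the mitochondrial ribosome translates, were the clearest as a sum. They summed to 80804 and 83228 CPM in WT liver, 74586 and 85537 in the KO livers, 44053, 39720 and 44874 in the WT tumours and 61690, 85165 and 65173 in KO tumours. The WT tumours were the lowest 3 of 10, with means 1.91-fold below WT liver, where the members without Timm22 were 1.13-fold below. They were lowest as shares of all counts too, at 4.03% to 5.10% against 6.45% to 8.44% in the other libraries. By gene, 6 of 13 fell in WT tumours (median -0.78), where 4.7% of all genes tested were called lower. They were led by mt-Nd2, a complex I subunit, from 12190 and 12055 CPM to 4702, 4573 and 5252 CPM (log2 fold change -1.32, SE 0.23, adjusted p = 0.0015). In KO against WT tumours 5 of 13 were higher (median 0.68), where 3.25% of all genes tested were called higher. These were led by mt-Co3, a complex IV subunit (0.85, SE 0.19, adjusted p = 0.015). Without WT liver replicate 2 the first count was 3. The second was 1 without any 1 of KO tumour replicates 2 and 3 and WT tumour replicates 2 and 3. Without KO tumour replicate 2 mt-Co3 passed with 0.74 (adjusted p = 0.034). The tag counts did not follow the sum for every gene: mt-Atp8 had 132 and 167 CPM in WT liver and 179, 256 and 258 CPM in WT tumours. It had 65.9 and 112 CPM in the KO livers and 334, 171 and 266 CPM in KO tumours. That difference between KO tumour and KO liver did not pass (1.53, SE 0.32, edgeR adjusted p = 0.10).

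Elsewhere single genes passed. The unfoldase Clpx, partner of the matrix protease ClpP, fell from 120 and 139 CPM in WT liver to 14.9, 33.8 and 21.2 CPM in the WT tumours (a log2 fold change of -2.47, SE 0.38, adjusted p = 0.00073). It was 1 of 15 tested genes of presequence processing and inner membrane quality control, where 4.7% of all genes were called lower. KO liver had 59.1 and 54.2 CPM of Clpx and KO tumours 35.1, 72.9 and 28.2 CPM, overlapping each other. Of 19 mitochondrial aminoacyl-tRNA synthetases, 1 fell in WT tumours, the asparaginyl enzyme Nars2, from 17.0 and 24.2 CPM to 8.38, 3.13 and 4.36 CPM (-1.96, SE 0.48, adjusted p = 0.018), where 4.7% of all genes were called lower. The fall was lost in 6 of 17 alternatives, including those without WT liver replicate 2 or WT tumour replicate 2 or 3, with adjusted p up to 0.13. Nars2 was also higher in KO than in WT tumours, at 13.9, 19.7 and 16.1 CPM (1.64, SE 0.44, adjusted p = 0.047), while Gars, which serves both cytosol and mitochondria, was lower (-0.91, SE 0.24, adjusted p = 0.046). Both of these tumour calls were lost without any 1 KO tumour or without WT tumour replicate 2 or 3, with adjusted p of 0.19 and 0.16 without KO tumour replicate 2. The Nars2 call was also lost without WT liver replicate 2 and the Gars call without KO liver replicate 1. With all libraries, no gene passed in any of the 5 comparisons among 6 tested mitochondrial ribosome subunits with other names, 26 assembly and rRNA modification factors, 17 translation factors, 20 further import genes and 20 regulators of mitochondrial biogenesis and DNA expression. The import motor co-chaperone Dnajc15 came nearest among import genes, at 113, 36.6 and 92.9 CPM in KO tumours against 18.6 and 24.9 in KO liver (1.89, SE 0.43, adjusted p = 0.13), and it passed without KO tumour replicate 2 (2.24, SE 0.35, adjusted p = 0.0054). Summed levels of translation factors were 390 to 419 CPM in WT tumours and 468 to 761 CPM in the other 7 libraries.

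Features of the members' promoters were compared with those of other genes. Of the 103 genes 41 (39.8%) begin within 1000 bases of the start of a protein-coding gene on the opposite strand, against 10.9% of all 21760 protein-coding genes in the table. Several of these partners serve mitochondria too: Mrpl46 and Mrps11 face each other at 412 bases, Mrps12 faces the mitochondrial seryl-tRNA synthetase Sars2 at 172 bases, Timm8b faces the complex II subunit Sdhd at 98 bases, and Mrpl36 faces the complex I subunit Ndufs6 at 29 bases. The called genes Mrps5, Timm9 and Mrpl41 also begin near an opposite gene, Zfp661 at 128 bases, 2700049A03Rik at 164 bases and Pnpla7 at 935 bases.

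Promoters of 300 bases (250 before to 50 after the start, RefSeq, GRCm38.p6) were matched for 91 of the 103 genes. Letters of known regulators of nuclear genes for mitochondria were searched on both strands. GCGCANGCG, the core of the nuclear respiratory factor 1 (NRF1) site, was in 20.9% of the members against 10.1% of protein-coding genes in the table and 7.03% of all promoters of this length. CCGGAAG, bound by ETS factors including GABP, was in 38.5% against 13.4% and 9.93%, and AAGATGGC, the core of the YY1 site, was in 14.3% against 3.64% and 3.19%. The GC box CCCGCCC (SP/KLF) was in 39.6% against 38.3% and 27.9%, and the E-box CACGTG in 11.0% against 9.18% and 8.09%. None of these motifs contains another. At least 1 of the NRF1, ETS and YY1 motifs was in 56 of 91 members. A match is a run of letters and not a measured site.

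**Figure D5:**
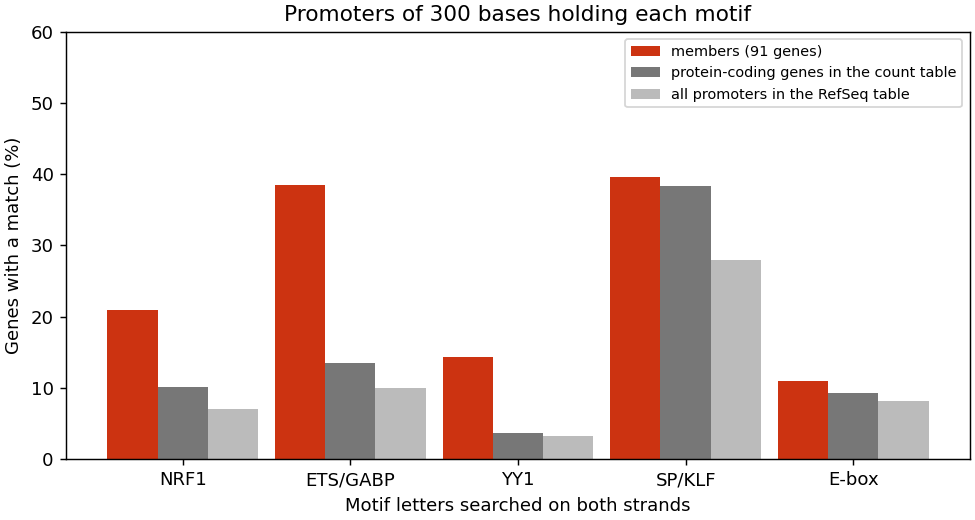
Percent of genes (vertical axis) whose 300-base promoter holds each motif, for 91 members, protein-coding genes in the count table and all promoters in the RefSeq table. The ETS/GABP letters are in 38.5% of members against 13.4% of protein-coding genes, and the SP/KLF letters in 39.6% against 38.3%.

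The first of the promoters shown here belong to the highest members with the paired motifs. Mrpl17 (chr7:105811038-105811337, minus strand) holds 2 NRF1 matches, 1 ETS match and 1 GC box, and Mrps12 (chr7:28741772-28742071, minus strand) 1 ETS match, 1 YY1 match and 1 GC box. The others belong to genes called between WT tumours and WT liver that have a matched promoter, to set beside their levels. The promoter of Timm22, called in other comparisons, was matched, held none of the 5 motifs and is not shown. Timm9 (chr12:71136626-71136925, minus strand) holds 2 E-boxes, Mrps5 (chr2:127587176-127587475, plus strand) 1 GC box, and Mrpl41 (chr2:24975049-24975348, minus strand) none of the 5 motifs. Sequences run 5′ to 3′ in the direction of the gene, with motif matches on either strand in capitals.
Mrpl17: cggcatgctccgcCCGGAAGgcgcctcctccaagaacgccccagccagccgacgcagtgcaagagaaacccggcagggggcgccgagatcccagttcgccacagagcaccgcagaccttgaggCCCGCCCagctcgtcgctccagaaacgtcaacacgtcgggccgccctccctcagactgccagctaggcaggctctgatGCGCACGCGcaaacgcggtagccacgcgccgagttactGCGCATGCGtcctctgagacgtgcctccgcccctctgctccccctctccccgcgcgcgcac
Mrps12: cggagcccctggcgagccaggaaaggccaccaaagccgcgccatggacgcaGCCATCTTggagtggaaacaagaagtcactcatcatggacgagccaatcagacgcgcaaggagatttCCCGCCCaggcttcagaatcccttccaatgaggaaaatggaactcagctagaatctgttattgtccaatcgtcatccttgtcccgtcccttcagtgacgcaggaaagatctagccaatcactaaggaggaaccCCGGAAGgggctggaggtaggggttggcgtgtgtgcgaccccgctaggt
Timm9: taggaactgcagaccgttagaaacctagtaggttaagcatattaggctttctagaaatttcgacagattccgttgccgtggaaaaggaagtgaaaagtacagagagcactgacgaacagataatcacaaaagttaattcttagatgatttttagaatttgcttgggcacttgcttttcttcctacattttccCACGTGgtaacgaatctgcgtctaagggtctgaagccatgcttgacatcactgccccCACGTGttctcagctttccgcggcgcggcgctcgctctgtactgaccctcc
Mrps5: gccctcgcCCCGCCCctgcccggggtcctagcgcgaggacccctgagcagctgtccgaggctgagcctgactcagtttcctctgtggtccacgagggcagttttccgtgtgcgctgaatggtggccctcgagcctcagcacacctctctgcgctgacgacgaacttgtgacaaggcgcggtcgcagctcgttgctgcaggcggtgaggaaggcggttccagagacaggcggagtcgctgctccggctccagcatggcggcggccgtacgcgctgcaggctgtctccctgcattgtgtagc
Mrpl41: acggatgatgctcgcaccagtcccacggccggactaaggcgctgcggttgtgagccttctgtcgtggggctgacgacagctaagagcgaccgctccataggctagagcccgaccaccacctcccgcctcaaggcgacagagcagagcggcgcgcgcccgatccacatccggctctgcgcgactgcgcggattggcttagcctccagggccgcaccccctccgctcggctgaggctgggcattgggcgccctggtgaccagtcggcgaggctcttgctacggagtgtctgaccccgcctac
Mrpl17 and Mrps12 were not called in any comparison, at 74.5 to 107 CPM and 89.3 to 158 CPM over the 10 libraries. Of the called genes shown, none held an NRF1, ETS or YY1 match in this window.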

How the data were processed

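Counts of 3′ tags were analysed for 10 libraries in 4 groups. The authors deposited 1 table of whole-number counts per gene, not normalized, from libraries made with a QuantSeq 3′ forward kit, which keeps strand, from 50 ng of total RNA, per the labels' protocols. BWA, featureCounts and the mm10 build are named in the submitters' processing notes, and their versions, the annotation and the strand setting were not given in the sources used here. Overlapping, antisense and near-identical genes may therefore share reads, and without molecular identifiers intervals and limits cover counting error only. The series' design text calls the replicates biological.

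Symbols were matched to 38872 of 39056 identifiers, and positions are those of GENCODE M21 (GRCm38). In R 4.3.3, edgeR 4.0.16 kept 15811 genes with filterByExpr, scaled libraries by TMM and fitted 1 quasi-likelihood model holding a coefficient for each group to all 10 libraries. The model was also run on counts simulated from its own fitted spread, which cannot test how well that spread describes these libraries. Adjusted p-values of 5 comparisons were computed over all genes tested, and a call is an adjusted p under 0.05. Alternatives were DESeq2 1.42.0, other scalings and filters, the compared groups alone, a replicate block and leaving out each library. Within-group pairs of libraries differed by a chi-square of 39.8 to 94.9 per degree of freedom, so none is a duplicate. Transcripts were compared with blastn 2.17.0. Promoters came from RefSeq (GRCm38.p6) and 12 members had none there.

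Members and lists were chosen with earlier results of these data known. Named genes are Timm22, up to 8 called members per comparison and direction or else the 3 smallest p-values, the highest and lowest member of each complex, members of related families, the 3 with the largest spread, called genes of each pathway list or its smallest p-value, and the 3 genes most like Timm22.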

Additional observations from a re-analysis of the deposited data

Results flagged for a closer look

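The tumour-to-liver change of Timm22 differed between the genotypes by the test of the difference itself (log2 3.66, SE 0.81, edgeR adjusted p = 0.033). KO liver had 32.4 and 50.6 CPM and the KO tumours 1847, 368 and 943 CPM, while WT liver had 219 and 559 CPM and the WT tumours 361, 1045 and 937 CPM. The groups hold 2 or 3 libraries each, too few to look for single outlying libraries. With any 1 library left out the value lay between 2.83 and 4.19 and the adjusted p between 0.007 and 0.12, passing in 3 of the 10 fits.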

How the results depend on the processing

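Size factors by median of ratios changed no direction and no call of the results given. With DESeq2, 3 members were called higher in WT tumours, 1 (Timm22) was lower in KO than in WT liver and 4 were higher in KO than in WT tumours. It also called 10 mitochondrially encoded genes lower in WT tumours and 9 higher in KO than in WT tumours. With genes of at least 10 CPM the members called higher were 3, 0 and 3 in WT tumours, KO tumours and KO against WT tumours, and the medians were -0.15 in WT tumours, 0.12 in KO liver and 0.08 in the interaction. With no filter on low counts 2 members were called higher in each of WT tumours, KO tumours, KO against WT tumours and the interaction, and 1 lower in KO liver. With no scaling 3 members were higher in WT tumours and 3 mitochondrially encoded genes were higher in KO than in WT tumours. The members' medians without scaling were 0.04, 0.05, 0.13, 0.12 and 0.06 in WT tumours, KO tumours, KO liver, KO against WT tumours and the interaction. The compared groups alone gave 0 members higher in WT tumours and in KO tumours, and 1 mitochondrially encoded gene higher in KO than in WT tumours. The causes were not tested.

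The members' mean sum, 4355 CPM in WT liver, 4117 in KO liver, 4296 in WT tumours and 5055 in KO tumours, was 3941 and 3848 in WT and KO liver without scaling, and 3967, 4075, 3515 and 4002 without Timm22. Same-numbered libraries of different groups did not deviate together (correlations -0.006 to 0.024), so the numbers were not taken to pair mice. With the replicate block, 2 members and 3 mitochondrially encoded genes were higher in KO than in WT tumours, and the members' median in KO tumours was -0.03.

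Leaving out each library gave 0 to 1 members higher and 1 to 3 lower in WT tumours (median -0.25 to -0.09), 0 to 2 higher in KO tumours (-0.12 to -0.06), 0 to 1 lower in KO liver (0.04 to 0.08), 1 to 2 higher in KO against WT tumours (0.15 to 0.26) and 0 to 1 in the interaction (0.10 to 0.25). Mitochondrially encoded genes gave 3 to 9 lower in WT tumours and 1 to 6 higher in KO against WT tumours. Alternatives for these genes were chosen after seeing the data. Uncalled values changed sign for Timm9 without KO liver replicate 2 (-0.29 in KO tumours, range -0.29 to 0.73, and 0.17 in KO liver, range -0.85 to 0.17) and for Timm22 in KO against WT tumours without KO tumour replicate 1 (-0.25, range -0.25 to 0.84). Depth limits the 11 members under 5 CPM most.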
